A study of Mus musculus with 10 samples.

Results

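Mitochondrial respiratory chain subunits, the nuclear-encoded proteins that build complexes I to V of the inner mitochondrial membrane, were followed in mouse keratinocytes with and without RhoA. They were taken by name alone: every probe set whose platform annotation gives exactly 1 gene symbol, where that symbol is a numbered Nduf subunit of the a, b, c, s or v series, one of Sdha to Sdhd, a Uqcr gene, a Cox gene of families 4 to 8, or an Atp5 gene. The rule found 164 of the 45037 probe sets on the array and 81 of the 18193 named genes. Complex I gave 73 probe sets of 35 genes, complex II gave 9 of 4, complex III gave 16 of 8, complex IV gave 35 of 17 and complex V gave 31 of 17. Ndufa4 and Ndufa4l2 carry complex I names and are counted there, although the Ndufa4 protein is now known as a subunit of complex IV.

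The series set RhoA-null against control mouse keratinocytes, taken straight from the epidermis or grown as primary cultures, on Affymetrix Mouse Genome 430 2.0 arrays. RhoA is a small GTPase that organises the actin cytoskeleton. The KO cells had the genotype RhoA fl/fl K5 cre, and the control cells, which the titles name wildtype, had the genotype RhoA fl/+ K5 cre, so the controls carry the same Cre and 1 floxed allele. Cre is driven by the keratin 5 promoter, which is active in basal keratinocytes. Epidermal cells that neither use this promoter nor descend from cells that did are not expected to recombine. The 10 arrays formed 4 groups: 3 cultured KO, 3 cultured control, 2 freshly isolated KO and 2 freshly isolated control arrays. Replicates are titled as biological, but no animals are named, and the p-values below reflect only how far these samples spread.

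Complex I (NADH dehydrogenase) and complex II (succinate dehydrogenase) pass electrons to ubiquinone, complex III (cytochrome bc1 complex) passes them to cytochrome c, and complex IV (cytochrome c oxidase) passes them to oxygen. Complexes I, III and IV pump protons, and complex V (ATP synthase) uses the proton gradient to make ATP. Most subunits are encoded in the nucleus, in all cells with mitochondria, and several complex IV subunits have further isoforms restricted to muscle, lung or testis. In the epidermis, keratinocytes lose their mitochondria as they cornify.

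The deposited values are linear intensities in signal units, 1 per probe set and array. They lie on different scales in the 2 conditions: the array median was 7.75 to 8 in culture, where 53.9% to 54.3% of probe sets read below 10, and 64.1 to 64.8 in fresh cells, where 0.102% to 0.140% did. KO and control arrays were therefore compared within a condition. The labelled cell type was checked on its keratins: Krt5 read 51269 to 51934 in cultured KO and 46739 to 55479 in cultured control arrays, and 22041 and 23502 in fresh KO against 22392 and 21546 in fresh control arrays. Rhoa itself (1437628_s_at) read 8209, 7839 and 7628 in cultured KO against 11249, 9879 and 9240 in cultured control cells, and 4398 and 4296 in fresh KO against 3526 and 4059 in fresh control cells. Neither difference passed the test (limma adjusted p = 0.156 in culture and 0.434 in fresh cells). Whether these probes lie inside the floxed stretch is not known here, so the values check no label. Fresh KO replicate 2 stood apart: Krt25, an inner root sheath keratin of the hair follicle, read 10946 there against 62.2 in fresh KO replicate 1, and 282 and 74.7 in the fresh controls. The members' median change in fresh cells, the number with the higher mean in KO cells and the changes of some main genes are given with and without that array. The fresh counts by gene, by complex and without overlap include it.

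Respiratory chain genes are known for promoters that share binding motifs of NRF1 and of ETS factors such as GABP. The RefSeq promoter windows of assembly GRCm38.p6, which run from 250 bases before to 50 bases after a gene's start, gave 71 windows for 66 of the 81 genes. The letters GCGCANGCG (NRF1) stood in 19 of the 71 windows (26.8%), on either strand, against 6.25% of all 32851 windows. The letters CCGGAAG (ETS) stood in 17 windows (23.9%), against 8.86% of all, and AANATGGCG (YY1) in 9 windows (12.7%), against 2.38% of all. In 6 windows NRF1 and ETS letters stood together. The windows were also richer in G and C, with a median of 58.3% against 52.7%, and a match is a description of the letters, not of a site. One gene of each complex is printed here, chosen after the values were seen among the genes whose probe sets the results below turn on: Ndufs8 (chr19:3912725-3913024, minus strand), Sdhb (chr4:140961021-140961320, plus strand), Uqcr11 (chr10:80406772-80407071, minus strand), Cox6a1 (chr5:115348909-115349208, minus strand) and Atp5o (chr16:91931581-91931880, minus strand). Each runs 5′ to 3′ along the gene's strand, and capitals mark the motif letters on either strand.
Ndufs8: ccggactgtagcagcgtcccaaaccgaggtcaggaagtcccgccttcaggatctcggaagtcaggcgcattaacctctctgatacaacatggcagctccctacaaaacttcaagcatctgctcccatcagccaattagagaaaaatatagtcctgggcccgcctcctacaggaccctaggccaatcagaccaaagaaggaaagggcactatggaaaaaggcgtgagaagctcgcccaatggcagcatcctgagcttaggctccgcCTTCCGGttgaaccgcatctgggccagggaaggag
Sdhb: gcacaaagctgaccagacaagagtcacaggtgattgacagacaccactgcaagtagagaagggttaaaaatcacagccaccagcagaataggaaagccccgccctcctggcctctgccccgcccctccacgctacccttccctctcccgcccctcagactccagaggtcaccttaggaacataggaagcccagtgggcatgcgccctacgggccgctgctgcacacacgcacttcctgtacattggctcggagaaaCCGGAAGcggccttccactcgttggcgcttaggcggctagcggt
Uqcr11: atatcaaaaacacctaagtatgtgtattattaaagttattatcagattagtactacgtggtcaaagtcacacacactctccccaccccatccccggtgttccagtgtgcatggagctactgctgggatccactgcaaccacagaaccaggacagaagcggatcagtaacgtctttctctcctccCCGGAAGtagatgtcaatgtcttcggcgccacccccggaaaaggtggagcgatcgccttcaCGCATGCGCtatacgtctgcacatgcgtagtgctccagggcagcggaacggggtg
Cox6a1: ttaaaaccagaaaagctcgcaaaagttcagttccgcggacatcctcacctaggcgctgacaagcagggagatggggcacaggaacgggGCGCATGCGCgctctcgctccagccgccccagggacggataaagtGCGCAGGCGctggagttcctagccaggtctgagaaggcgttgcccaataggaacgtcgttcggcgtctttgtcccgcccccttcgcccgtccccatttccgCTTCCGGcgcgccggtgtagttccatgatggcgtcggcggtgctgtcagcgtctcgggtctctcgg
Atp5o: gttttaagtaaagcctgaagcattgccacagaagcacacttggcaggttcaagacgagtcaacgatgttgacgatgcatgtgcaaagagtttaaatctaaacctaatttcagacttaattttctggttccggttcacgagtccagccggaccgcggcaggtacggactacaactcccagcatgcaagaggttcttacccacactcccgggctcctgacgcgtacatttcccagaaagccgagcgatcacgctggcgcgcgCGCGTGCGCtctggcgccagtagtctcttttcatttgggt
The Cox6a1 window held 3 matches to the NRF1 letters, a pair of them overlapping, and 1 to the ETS letters. The Uqcr11 window held 1 match to each. Those of Ndufs8 and Sdhb held 1 match to the ETS letters, and that of Atp5o held 1 to the NRF1 letters. Matches to different motifs did not overlap in these windows.

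In freshly isolated keratinocytes, most subunit probe sets of each of the 5 complexes had a slightly higher mean in KO than in control cells, and no single subunit passed the test. A probe set was tested where its signal exceeded the median of the array on 2 or more fresh arrays, which 145 of the 164 did. Of these, 131 had the higher mean in KO and 14 in control cells, and the median log2 change was 0.21, a 1.15-fold difference. Over all 22893 probe sets tested, 49.9% had the higher mean in KO cells and the median log2 change was -0.00034. Among the brightest 2290 of all probe sets tested, which are nearer to the members' high signals, 51.8% had the higher mean in KO cells and the median was 0.0084. By gene, taking the brightest probe set, 72 of 76 tested genes had the higher mean in KO cells, against 52.1% of all 11250 genes tested.

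With 2 arrays in each fresh group, limma with Benjamini-Hochberg adjustment over all probe sets called none of the 145 members at 0.05, and 0% of all probe sets tested were called. At an unadjusted p under 0.05, 71 members were higher in KO cells, against 6.01% of all probe sets tested, and 1 was lower, against 6.89%. Both KO arrays lay above both controls for 112 members, against 23.5% of all probe sets tested, and both lay below for 9, also against 23.5%. Without fresh KO replicate 2 the median log2 change was 0.18 and 126 members had the higher mean in KO cells. The count at an unadjusted p under 0.05 fell whichever fresh array was left out, most without fresh control replicate 2. Each such fit leaves 1 array in a group, and its share of all probe sets at that level is not given here. Whether the members exceed that share in these fits is therefore not shown. Leaving out fresh KO replicate 1 leaves only KO replicate 2, the array that stood apart, which is then assumed to vary like the controls. In that fit 4.38% of all probe sets were called, and 3 members were among them: Ndufa4l2 (log2 change -1.32, adjusted p = 0.0083), Uqcrq (0.58, adjusted p = 0.0495) and Atp5mpl (0.68, adjusted p = 0.0377).

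**Figure D1:**
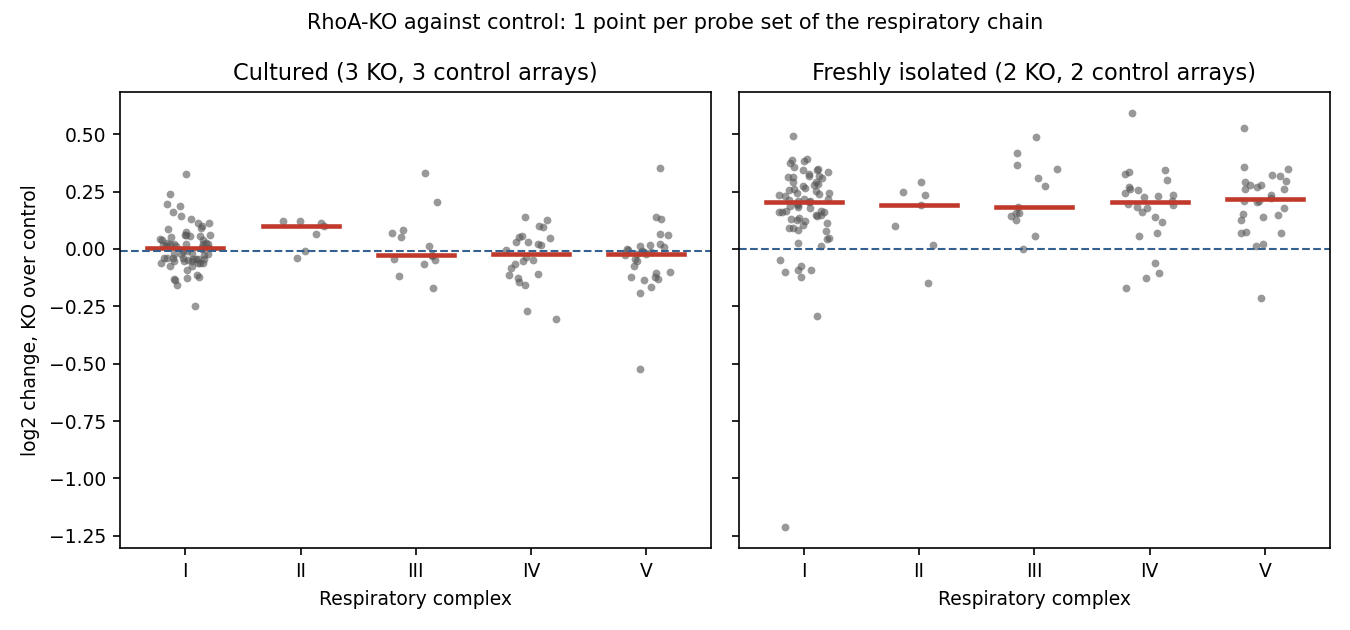
Log2 change of KO over control (vertical axis) for each tested probe set of complexes I to V (horizontal axis), in culture on the left and in fresh cells on the right; points are probe sets, red bars their medians and the dashed line the median of all probe sets tested. In fresh cells the 5 medians lie between 0.18 and 0.22, and in culture between -0.03 and 0.10; the lowest fresh point, at -1.21, is Ndufa4l2.

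The shift was seen on each fresh array. The members' median log2 deviation from the mean of the condition was 0.07 on KO replicate 1 and 0.13 on KO replicate 2, and it was -0.08 on control replicate 1 and -0.12 on control replicate 2. All 5 complexes had positive medians on both KO arrays and negative medians on both control arrays. The same quantity over all probe sets tested was 0.0057 and -0.0014 on the KO arrays and 0.014 and -0.012 on the controls. Fewer cells of a type and less RNA per cell cannot be told apart in such bulk samples. Markers of other cells also differed between these arrays. The summed signal of 12 hair follicle markers was 802 and 41939 on the fresh KO arrays and 1713 and 980 on the fresh controls, that of 8 melanocyte markers 1070 and 4649 on the KO arrays and 756 and 635 on the controls, and that of 11 Langerhans cell and myeloid markers 22572 and 13760 on the KO arrays and 30578 and 24491 on the controls. The 8 fibroblast markers summed to 2250 and 2618 on the KO arrays and to 2061 and 1818 on the controls. KO replicate 2 also held more signal of 4 sebaceous markers (5072, against 3491 on KO replicate 1 and 3664 and 3630 on the controls) and of 4 adipocyte markers (1744, against 118 on KO replicate 1 and 121 and 93.2 on the controls). The 9 keratinocyte markers summed to 139830 and 142818 on the KO arrays and to 135838 and 132589 on the controls. Krt1, a keratin of differentiating keratinocytes, read 16933 and 17555 on the KO arrays and 12360 and 10562 on the controls (log2 change 0.59, limma adjusted p = 0.242), and Krt10, its partner, read 29537 and 30458 on the KO arrays and 29043 and 29412 on the controls. Every one of the 11 myeloid markers passed the low-signal filter in fresh cells, and their part in the result was not tested, nor was that of the other marker signals.

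**Figure D2:**
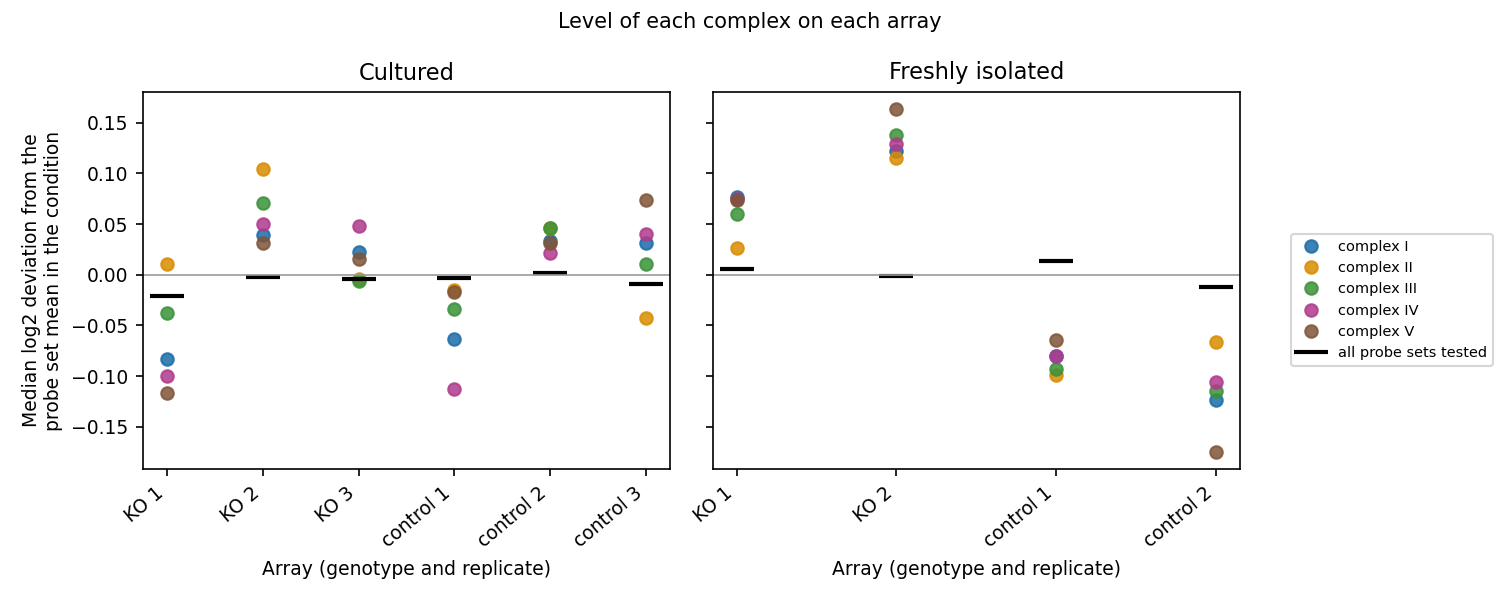
Median log2 deviation of the probe sets of each complex from their mean over the condition (vertical axis) on each array (horizontal axis), with black bars for all probe sets tested. Both fresh KO arrays lie above 0 and both fresh controls below it for all complexes, while in culture both replicate 1 arrays lie low for complexes I, III, IV and V and the genotypes mix.

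Of the 35 complex I genes, 34 were tested in fresh cells, 32 with the higher mean in KO and 2 in control cells (gene median 0.19), and 14 were higher at an unadjusted p under 0.05. Ndufs8, which holds iron-sulfur clusters on the electrons' path to ubiquinone, read 2727 and 2768 in KO against 2205 and 2039 in control cells. It was 1.30-fold higher in KO cells, with a log2 change of 0.37 (SE 0.084, limma adjusted p = 0.289), and the groups did not overlap. All 6 of its tested probe sets had the higher mean in KO cells, by log2 changes of 0.08 to 0.39. Ndufa1, a small accessory subunit of the membrane arm, read 9617 and 9756 in KO against 8178 and 7827 in control cells (log2 change 0.28, SE 0.059, adjusted p = 0.276), again without overlap.

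The other core subunits of complex I were alike in sign. Ndufv1, which binds NADH and FMN, read 2891 and 3089 in KO against 2509 and 2506 in control cells. Its partner Ndufv2 read 3485 and 3703 in KO against 3099 and 2809 in control cells, and Ndufs1, the largest subunit, 1458 and 1593 in KO against 1352 and 1229 in control cells. The log2 changes of these genes were 0.25, 0.28 and 0.24, and in none of them did the groups overlap. Ndufs3, of the arm that faces the matrix, read 2782 and 2832 in KO against 2551 and 2412 in control cells. For Ndufs7, which holds the last iron-sulfur cluster before ubiquinone, the groups overlapped on the brightest probe set, at 2436 and 2707 in KO against 2329 and 2457 in control cells. Ndufa6 was one of the exceptions, with 4202 and 3904 in KO and 4314 and 4324 in control cells (log2 change -0.09, SE 0.074, adjusted p = 0.631).

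Ndufa4l2 was the largest single difference among the members, and it ran the other way. It encodes a paralog of Ndufa4 that is known as a hypoxia-induced gene that lowers complex I activity. Its 1 probe set (1434905_at) read 603 and 520 in fresh KO against 1372 and 1227 in fresh control cells. The KO level was 0.432 of control, both KO arrays lay below both controls, and the log2 change was -1.21 (SE 0.126). The adjusted p of 0.153 did not pass. It was called in 1 fit over all 10 arrays (-1.21, adjusted p = 0.0016), and over all alternatives its adjusted p ran between 0.0016 and 0.983. Without fresh KO replicate 2 the log2 change was -1.11 (adjusted p = 0.0768). In culture it read 3.03 to 3.06 in KO and 3.04 to 3.14 in control cells, at the floor of those arrays, and was not tested. The fit over all 10 arrays takes 1 variance from all 4 groups, so its call also rests on the small spread of these floor values. Ndufa4 itself read 7894 and 6874 in fresh KO against 6584 and 6695 in fresh control cells, a log2 change of 0.15 (SE 0.085, adjusted p = 0.508).

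Complex II consists of 4 subunits that also serve the citrate cycle, and all 4 had the higher mean in fresh KO cells on their brightest probe sets (gene median 0.24). Sdhb, the iron-sulfur subunit, read 2863 and 3105 in KO against 2488 and 2390 in control cells, without overlap (log2 change 0.29, SE 0.084, adjusted p = 0.317). Sdha, the flavoprotein that oxidises succinate, read 1314 and 1532 in KO against 1216 and 1268 in control cells. The membrane anchors were Sdhc, with 679 and 713 in KO against 616 and 566 in control cells, and Sdhd, with 979 and 966 in KO against 875 and 765 in control cells. A second probe set of Sdhd (1437489_x_at) ran the other way with overlapping groups, at 255 and 257 in KO against 252 and 321 in control cells.

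All 8 complex III genes had the higher mean in fresh KO cells (gene median 0.23), and 5 were higher at an unadjusted p under 0.05. Uqcrq, the small ubiquinone-binding subunit, read 2734 and 3117 in KO against 2209 and 1959 in control cells. That was 1.40-fold higher (log2 change 0.49, SE 0.109, adjusted p = 0.287), without overlap. Uqcr11, a small accessory subunit, read 4416 and 5059 in KO against 3825 and 3518 in control cells (log2 change 0.37, SE 0.097). Uqcr10 read 2296 and 2676 in KO against 2085 and 1923 in control cells, and its 3 probe sets gave log2 changes of 0.31 to 0.42. The core protein Uqcrc1 read 5587 and 5762 in KO against 4925 and 4478 in control cells, a log2 change of 0.27. Its partner Uqcrc2 did not differ between the groups beyond their spread, at 2744 and 2828 in KO and 2615 and 2966 in control cells.

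The remaining complex III genes had smaller differences without overlap. Uqcrfs1, the Rieske iron-sulfur protein, read 1972 and 1918 in fresh KO against 1778 and 1744 in fresh control cells. Uqcrh, the hinge protein, read 6576 and 7010 in KO against 6068 and 5883 in control cells. Uqcrb, which binds ubiquinone, read 19827 and 19246 in KO against 18987 and 18578 in control cells, a log2 change of 0.06.

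In complex IV, 13 of 17 genes were tested in fresh cells, 11 with the higher mean in KO and 2 in control cells (gene median 0.18). Cox6c, a subunit that spans the membrane, read 10660 and 10608 in KO against 9142 and 8511 in control cells, without overlap (log2 change 0.27, SE 0.062, adjusted p = 0.289). Cox5b, on the matrix side, read 11207 and 11382 in KO against 9761 and 9470 in control cells, and all 5 of its tested probe sets had the higher mean in KO cells, by log2 changes of 0.21 to 0.33. Cox4i1, the ubiquitous form of the largest nuclear-encoded subunit, read 11032 and 11699 in KO against 10150 and 9926 in control cells. Cox5a read 6999 and 8489 in KO against 6154 and 6977 in control cells on its brightest probe set. Cox6a1 had a pair of probe sets, of which the brighter read 17717 and 17939 in KO against 15987 and 15908 in control cells and the other 7282 and 7506 in KO against 5942 and 5762 in control cells.

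The other ubiquitous isoforms of complex IV also lay higher in fresh KO cells. Cox6b1 read 10770 and 10965 in KO against 9582 and 9545 in control cells, Cox7a2 read 9370 and 9666 in KO against 8960 and 9175 in control cells, and Cox8a read 4472 and 4293 in KO against 3981 and 3518 in control cells. Cox7c, named after its values were seen, had the most positive log2 change of the tested members, 0.59, on a dim probe set, with 154 and 165 in KO against 116 and 96.4 in control cells. Cox7a2l, which acts in joining complexes III and IV into supercomplexes, was the exception. It read 5536 and 5507 in KO against 5835 and 6605 in control cells, with a log2 change of -0.17 (SE 0.082, adjusted p = 0.452), and both of its other probe sets also had the lower mean in KO cells.

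All 17 complex V genes had the higher mean in fresh KO cells on their brightest probe set (gene median 0.26), Atp5g1 not so by the mean over its probe sets, and 11 were higher at an unadjusted p under 0.05. Atp5o, the stalk subunit that ties the catalytic head to the membrane part, read 3746 and 3752 in KO against 3112 and 2889 in control cells, without overlap (log2 change 0.32, SE 0.078, adjusted p = 0.289). The catalytic beta subunit Atp5b read 4058 and 4415 in KO against 3643 and 3419 in control cells, and the alpha subunit Atp5a1 5536 and 5933 in KO against 4978 and 4480 in control cells. Their log2 changes were 0.26 and 0.28. The 2 other probe sets of Atp5a1 gave 0.02 and -0.21, and the last of these read 287 and 264 in KO against 312 and 327 in control cells. The central stalk genes were less even: Atp5e read 4342 and 5051 in KO against 3899 and 3432 in control cells, Atp5d read 10174 and 10192 in KO against 9684 and 9741 in control cells, and Atp5c1 overlapped, with 9563 and 8393 in KO and 8956 and 8782 in control cells.

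The proton-carrying c-ring is made of 1 mature protein that 3 genes encode. In fresh cells Atp5g1 read 2684 and 2760 in KO against 2268 and 2016 in control cells, with a log2 change of 0.35 (SE 0.093). Its other probe set was too dim to be tested and ran the other way, at 21.6 and 20.1 in KO against 29.8 and 27.4 in control cells, and the mean over both probe sets gave a log2 change of -0.0522. Atp5g3 read 10633 and 11397 in KO against 9602 and 8658 in control cells, with a log2 change of 0.27. Atp5g2 read 4045 and 4324 in KO against 4042 and 3522 in control cells, a smaller difference of 0.15. Atp5mpl, a small membrane protein of the complex that was named after its values were seen, had the largest change of complex V, with 1945 and 2402 in KO against 1590 and 1414 in control cells (log2 change 0.53). Without fresh KO replicate 2 it was 0.38.

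**Figure D3:**
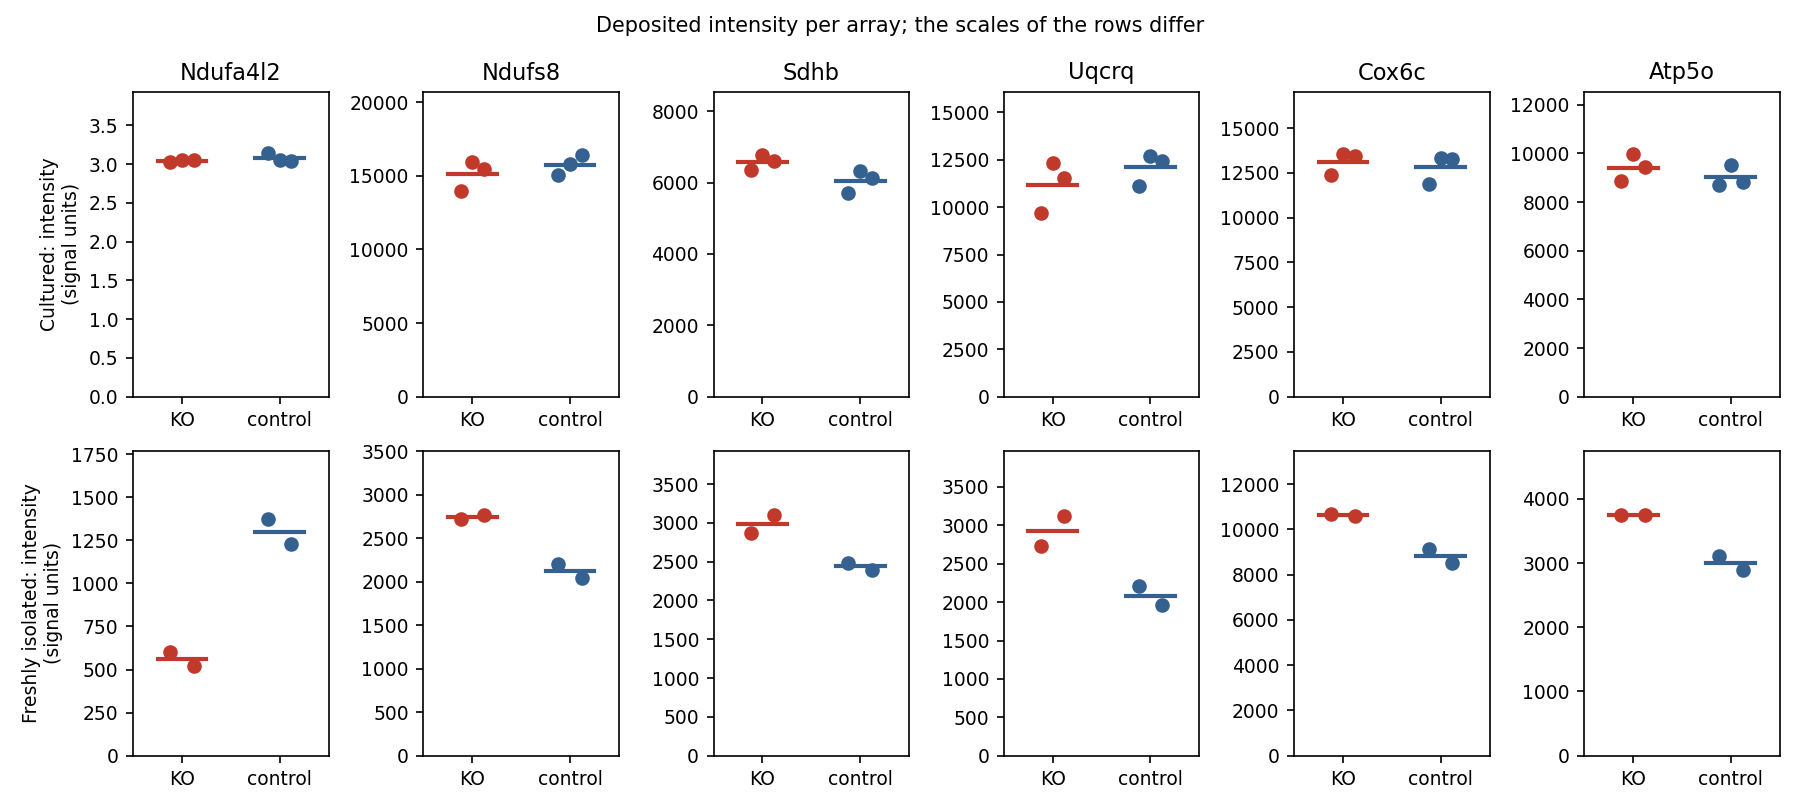
Deposited intensity in signal units (vertical axes, from 0) of 1 gene from each complex and Ndufa4l2, in cultured cells in the upper row and fresh cells in the lower row; points are arrays and bars group means, KO on the left of each panel. In fresh cells Ndufs8, Sdhb, Uqcrq, Cox6c and Atp5o lie higher on both KO arrays than on both controls and Ndufa4l2 lies lower, while in culture only Sdhb of these separates the groups.

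Without fresh KO replicate 2, the log2 change was 0.36 for Ndufs8, 0.27 for Ndufa1, 0.23 for Sdhb, 0.39 for Uqcrq, 0.27 for Uqcr11 and 0.27 for Cox6c. It was 0.22 for Cox5b, 0.32 for Atp5o, 0.20 for Atp5b and 0.23 for Atp5a1, and none of these 10 genes was called.

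Probe sets of 1 gene were mostly alike in fresh cells. Of 42 genes with several tested probe sets, 6 had log2 changes of opposite sign, and the median span within a gene was 0.14. By the ending of the probe set's name, which marks probes shared between transcripts (s_at, x_at, a_at), the median log2 change was 0.18 for 17 ending in s_at, 0.23 for 26 in x_at, 0.18 for 37 in a_at and 0.21 for 65 in at alone. Respiratory chain genes have many near-identical processed copies in the genome, so signals of s_at and x_at probe sets may include other loci.

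In culture the members showed no common difference between KO and control cells. Of 141 tested members, 65 had the higher mean in KO and 76 in control cells, with a median log2 change of -0.0095, against 47.2% higher and a median of -0.0068 over all 22682 probe sets tested. None was called, where 0.273% of all probe sets tested were. At an unadjusted p under 0.05, 5 members were higher in KO cells and 0 lower, against 7.16% and 8.49% of all probe sets tested. All KO arrays lay above all controls for 8 members and below them for 8, against 10.1% and 12.2% of all probe sets tested. The gene medians were 0.0051 in complex I, 0.09 in complex II, -0.04 in complex III, -0.0065 in complex IV and -0.02 in complex V. The arrays differed more by replicate than by genotype: the members' median deviation was -0.08, 0.04 and 0.02 on KO replicates 1, 2 and 3 and -0.06, 0.03 and 0.03 on control replicates 1, 2 and 3.

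Ndufa7, an accessory subunit of complex I, came closest to the threshold in culture. Its probe set 1428360_x_at read 6704, 6969 and 6909 in KO against 5695, 5804 and 5944 in control cells, without overlap (log2 change 0.24, SE 0.046, limma adjusted p = 0.113). The brightest of its probe sets read 9428, 9909 and 9652 in KO against 8117, 8981 and 8213 in control cells (0.20, SE 0.057, adjusted p = 0.204). All 5 of its probe sets had the higher mean in KO cells and 4 were at an unadjusted p under 0.05, and these probe sets share a target gene. In fresh cells they were higher in KO as well, by log2 changes of 0.16 to 0.22.

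Other members near the top of the cultured comparison were Sdhb, with 6347, 6776 and 6605 in KO against 5699, 6315 and 6116 in control cells, and Cox4i1, with 25272, 27333 and 27818 in KO against 22336, 25230 and 25457 in control cells. The groups were apart for Sdhb and overlapped for Cox4i1. Ndufb6, an accessory subunit of the complex I membrane arm, read 25057, 25523 and 25576 in KO against 20949, 24919 and 23982 in control cells. Atp5l, a membrane subunit of complex V, read 12493, 13575 and 13461 in KO against 10674, 12782 and 12777 in control cells. Their log2 changes were 0.12 for Sdhb, 0.14 for Cox4i1, 0.13 for Ndufb6 and 0.13 for Atp5l, all with adjusted p of 0.376 or more.

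On the lower side in culture stood Atp5c1, the shaft of the complex V rotor, with 15670, 18221 and 18421 in KO against 19081, 18812 and 21745 in control cells (log2 change -0.19, SE 0.089, adjusted p = 0.367). Uqcrfs1 read 6134, 6868 and 6899 in KO against 6948, 7320 and 8128 in control cells (log2 change -0.17), and for both genes all KO arrays lay below all controls. The c-ring gene Atp5g1 read 8560, 9956 and 9215 in KO against 9691, 10959 and 10483 in control cells, and Atp5g2 read 9430, 10771 and 10254 in KO against 10572, 11565 and 11155 in control cells, both with overlap. The third c-ring gene, Atp5g3, differed by less than its spread, at 30332, 31970 and 31718 in KO and 31329, 32090 and 31594 in control cells. Cox6a1 read 38587, 41676 and 39877 in KO against 43599, 41246 and 44945 in control cells on its brighter probe set.

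Of the core enzymes in culture, Ndufv1 had a mean of 7634 ± 325 in KO and 7404 ± 217 in control cells, Uqcrc2 of 14601 ± 617 in KO and 14453 ± 369 in control cells, and Atp5b of 35530 ± 82.8 in KO and 35695 ± 1487 in control cells (SD, n = 3 each). Their log2 changes of 0.04, 0.01 and -0.0058 were smaller than their standard errors of 0.05, 0.05 and 0.04. For Ndufs8 the cultured values were 13978, 15932 and 15466 in KO against 15059, 15779 and 16423 in control cells, with overlap. These values do not show that the levels were equal.

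The difference between the KO effect in culture and the KO effect in fresh cells was tested for 138 members. It was below 0 for 119 and above 0 for 19, with a median of -0.21 on the log2 scale. Over all 18773 probe sets tested in both conditions, 45.4% were above 0 and the median was -0.04. The size of a log2 change can depend on the scale, which differs here. Processing and condition therefore cannot be told apart in this difference. At an unadjusted p under 0.05, 51 members were below 0 and 0 above it, against 10.5% and 7.3% of all probe sets tested. These counts use the same arrays as the comparisons within each condition, and 18 members were below 0 at that level without fresh control replicate 2, and 33 without fresh KO replicate 2. By gene, the medians were -0.20 in complex I, -0.15 in complex II, -0.24 in complex III, -0.21 in complex IV and -0.27 in complex V, where all 17 genes were below 0.

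Of the 138 members tested, 1 passed the adjusted threshold of 0.05, on the lower side. Over all probe sets tested, 0.879% passed on either side and 0.517% on the lower one, so this count is no result about the members. The probe set was 1417418_s_at of Cox6a1, the ubiquitous form of a subunit at the dimer interface of complex IV. It read 12883, 14308 and 13192 in cultured KO against 16469, 14104 and 14536 in cultured control cells, where the groups overlapped. In fresh cells it read 7282 and 7506 in KO against 5942 and 5762 in control cells, where they did not. The difference of the KO effects was -0.50 (SE 0.098, adjusted p = 0.0489). The call was lost with 1 fit over all 10 arrays (adjusted p = 0.0832), without the filter on dim probe sets (0.0669), with the replicate number as a block (0.0681) and without any 1 of 8 of the 10 arrays, and it held without cultured control replicate 1 (0.0442) and without fresh KO replicate 1 (0.0219). The brighter Cox6a1 probe set gave -0.27 (adjusted p = 0.0861), and its name carries no mark of shared transcripts beyond those of the gene.

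A further 6 members had groups that were apart in opposite directions in the 2 conditions without passing the test of the difference. The widest was Ndufb7 (1448331_at), an accessory subunit of complex I (difference -0.59, adjusted p = 0.0891). It read 3060, 3546 and 3495 in cultured KO against 3547, 3634 and 3574 in cultured control cells. In fresh cells it read 1759 and 2043 in KO against 1426 and 1274 in control cells. Brighter probe sets of Ndufb7, and of Ndufa5, Ndufb5 and Ndufb11 among the 6, had overlapping groups in culture. Over all probe sets tested, all KO arrays lay below all controls for 12.2% in culture and above them for 23.5% in fresh cells. How often both held together was not counted, so the 6 are no result about the members. Without fresh KO replicate 1, which leaves KO replicate 2 alone in its group, the difference of 8 members passed, and 7.13% of all probe sets tested did in that fit.

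**Figure D4:**
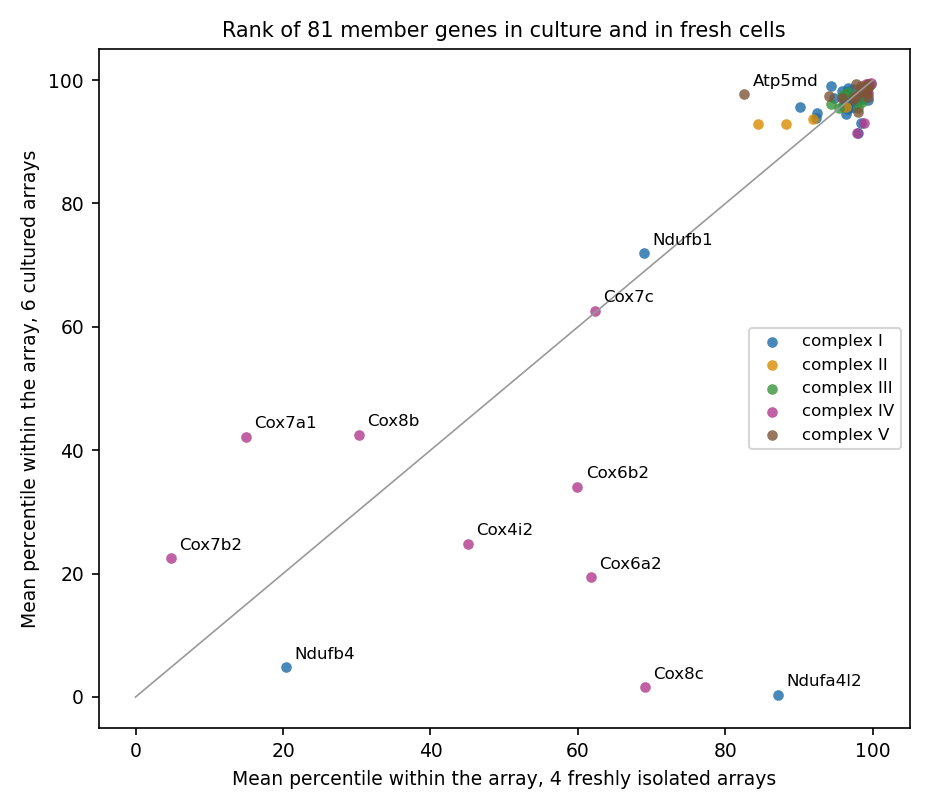
Mean percentile of the brightest probe set of each of the 81 genes within cultured arrays (vertical axis, 6 arrays) and within fresh arrays (horizontal axis, 4 arrays), coloured by complex, with the line of equal rank. Most genes crowd into the upper right corner, and the genes named in the plot are those with a gap over 10 points or a fresh percentile under 80.

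Most subunit genes were among the brightest of the array in both conditions. By the mean percentile of their brightest probe set, 70 of the 81 genes lay at or above the 90th percentile of cultured arrays and 67 did so in fresh arrays, and 67 did in both. All 8 complex III genes and 16 of 17 complex V genes were in this group, but only 9 of 17 complex IV genes. Percentiles here place a gene's own probe set among all probe sets, and probe sets differ in brightness for the same amount of RNA, so they order no genes against each other.

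The exceptions in complex IV were mostly tissue-restricted isoforms. The muscle forms Cox7a1 and Cox8b read 6.35 to 6.43 and 6.36 to 6.52 in cultured KO and 6.36 to 6.55 and 6.32 to 6.63 in cultured control cells. In fresh cells Cox7a1 read 21.9 and 26.1 in KO and 21.8 and 21.1 in control cells, and Cox8b read 28.5 and 36.5 in KO and 33.1 and 38.6 in control cells, all below the array median. The muscle form Cox6a2 read 111 and 131 in fresh KO and 119 and 132 in fresh control cells, with overlap (log2 change -0.06, adjusted p = 0.893), and 4.45 to 4.92 in cultured KO and 4.54 to 5.43 in cultured control cells. Of 8 skeletal muscle markers, 2 passed the low-signal filter in fresh cells, and their summed signal was 390 and 384 in fresh KO and 367 and 411 in fresh control cells. The lung form Cox4i2 stayed at or below 5.02 on every cultured array, and it read 51.0 and 49.0 in fresh KO against 54.1 and 58.6 in fresh control cells, below the array median throughout.

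The testis forms differed among themselves. Cox8c read 218 and 224 in fresh KO against 191 and 195 in fresh control cells (log2 change 0.20, adjusted p = 0.541), above the array median, while in culture it read 3.44 to 3.82 in KO and 3.43 to 3.45 in control cells. Cox6b2 read 108 and 115 in fresh KO and 117 and 98.6 in fresh control cells, with overlap. Cox7b2 read 18.68 and 14.96 in fresh KO and 13.67 and 14.67 in fresh control cells, near the bottom of the array. Cox7c, a ubiquitous gene, lay at a mean percentile of only 62.6 in culture and 62.3 in fresh cells on its brightest probe set. Ndufb4 of complex I lay below the median of every array, at 29.4 and 27.8 in fresh KO and 24.8 and 23.7 in fresh control cells.

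Ranks were also compared between cultured and fresh cells, but nearly everything differed: 142 of the 164 members were called (56 higher and 86 lower in culture), against 89.8% of all 45037 probe sets (46.2% higher and 43.6% lower), so the members' count is no result about them. Processing and condition cannot be told apart here, since the scales differ. The percentile ranges did not overlap with culture higher for 50 members and with culture lower for 79, against 43.1% and 40% of all probe sets. Among genes measured above the median in both conditions, Atp5md, a small membrane protein of complex V, lay at the 97.5th to 97.9th percentile in culture and at the 81.7th to 83.3rd in fresh cells. Sdhc lay at the 91.2nd to 93.7th percentile in culture and at the 83.0th to 85.8th in fresh cells. On the lower side, Ndufa6 lay at the 90.9th to 91.7th percentile in culture and at the 97.8th to 98.1st in fresh cells, and Ndufv3, an accessory subunit of complex I, at the 92.2nd to 93.4th in culture and at the 98.3rd to 98.5th in fresh cells. The widest gap was that of Ndufa4l2, at the floor in culture, where values have no order, and at the 81.8th to 92.1st percentile in fresh cells.

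Other mitochondrial gene lists were counted beside the subunits, by gene, from lists chosen with earlier results of these data known. Of 76 mitochondrial ribosomal protein genes, 73 had the higher mean in fresh KO cells, with a median log2 change of 0.22, and 23 were higher at an unadjusted p under 0.05. Over all 11250 genes tested, 52.1% had the higher mean in KO cells and 7.64% were higher at that level. Mrps23, of the small subunit, read 466 and 456 in fresh KO against 349 and 329 in fresh control cells, and Mrpl51, of the large subunit, 3037 and 3220 in fresh KO against 2573 and 2365 in fresh control cells. Of 42 assembly factors tested, 35 had the higher mean in fresh KO cells (median 0.15), such as Uqcc2, which helps build complex III, with 4341 and 4225 in KO against 3479 and 2980 in control cells. The citrate cycle list, which also held pyruvate dehydrogenase genes and their kinases Pdk1 to Pdk4, had 14 of 19 higher and 5 lower (median 0.16). Idh3a, of isocitrate dehydrogenase, read 1929 and 1951 in KO against 1633 and 1380 in control cells. Citrate synthase (Cs) did not differ beyond its spread, at 7608 and 7344 in KO and 7331 and 7587 in control cells.

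Pdk4 of the citrate cycle list, a kinase that shuts pyruvate dehydrogenase, read 166 and 170 in fresh KO against 230 and 327 in fresh control cells (log2 change -0.71, limma adjusted p = 0.312). The list of subunits and carriers outside the naming rule also held Coq genes, Pdss2, Etf genes, Aox1, Dhodh and Gpd2. Of its 17 tested genes, 12 were higher and 5 lower (median 0.16). Among the higher ones, Cyc1, the cytochrome of complex III, read 3354 and 3583 in KO against 2939 and 2902 in control cells. Its electron acceptor cytochrome c (Cycs) read 3706 and 3968 in KO against 3236 and 3376 in control cells. Regulators of mitochondrial biogenesis had 11 of 17 higher, with a median of 0.04 and 0 at an unadjusted p under 0.05. The transcription factor Nrf1 read 118 and 100 in KO and 107 and 105 in control cells, and Tfam, which packages mitochondrial DNA, 635 and 651 in KO and 612 and 654 in control cells, both with overlap. Limma called no gene of these lists in fresh cells or in culture, where 39 of 76 ribosomal protein genes and 24 of 43 assembly factors had the higher mean in KO cells.

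**Figure D5:**
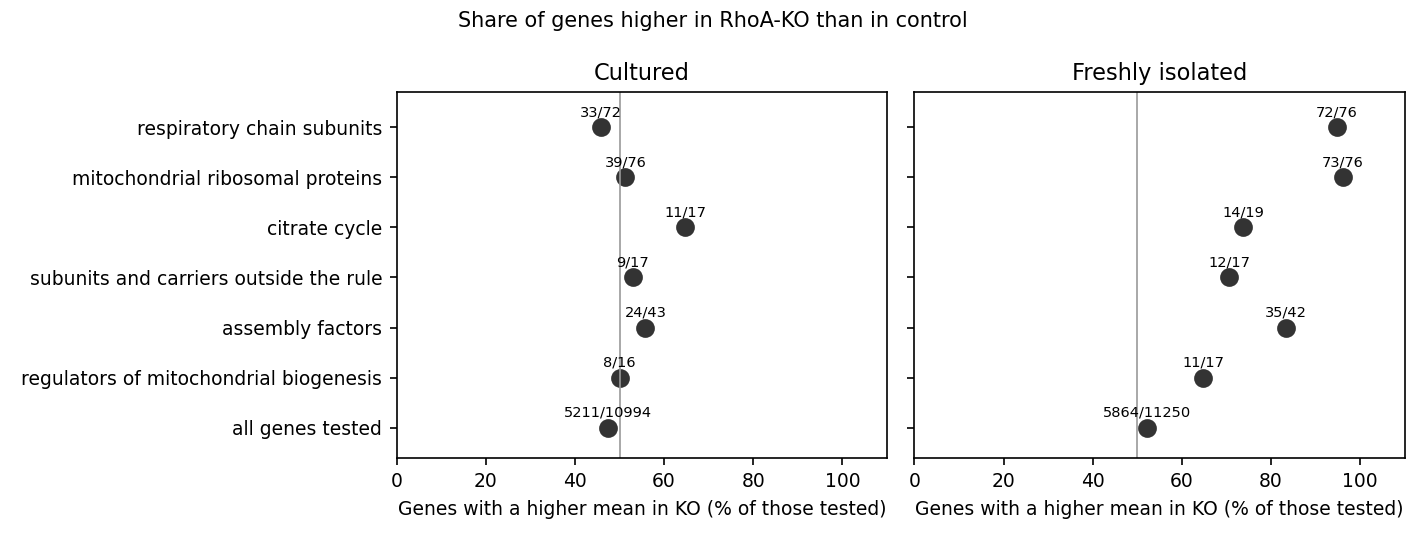
Share of the tested genes of each list with the higher mean in KO cells (horizontal axis, percent), in culture on the left and in fresh cells on the right; numbers give genes higher over genes tested and the grey line marks 50%. In fresh cells the subunits stand at 72 of 76 and the mitochondrial ribosomal proteins at 73 of 76, against 52.1% of all genes tested.

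The fresh medians of the subunit genes were also taken with and without the promoter letters described above. The 17 tested genes with NRF1 letters had a median log2 change of 0.25 and the 45 without had 0.18. The 17 with ETS letters had 0.23 and the 45 without had 0.19. For the 9 with YY1 letters it was 0.189, and for the 53 without it was 0.195. All 17 genes with ETS letters lay on the higher side in KO cells, as did 43 of the 45 without. With NRF1 letters 16 of 17 did, and without them 44 of 45. With YY1 letters 9 of 9 did, and without them 51 of 53. No test of these differences was made.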

How the data were processed

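RNA of 10 keratinocyte samples was hybridised to Affymetrix Mouse Genome 430 2.0 arrays. The authors deposited linear intensities, 1 for each array and probe set, computed with MAS5 per the submitters' processing notes. Its version, its scaling and the reason why fresh and cultured arrays have different scales: not given in the sources used here. Probe sets were named from GEO's platform annotation: 34945 have 1 gene symbol, 932 several and 9160 none.

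Each condition was fitted apart with limma 3.58.1 (R 4.3.3) on log2 intensities with no offset, over probe sets that exceeded the array median on 2 or more arrays of that condition (eBayes with a trend, two-sided, Benjamini-Hochberg adjusted over all probe sets tested, threshold 0.05). The difference of the KO effects combined both moderated standard errors, and its size can depend on the different scales of the 2 conditions. Cultured and fresh cells were compared by limma on normal scores of the ranks within an array. A gene was represented by its brightest probe set. The number of arrays limits the precision: arrays of 1 group correlated at 0.976 to 0.996. The lowest value was that of the 2 fresh KO arrays. Fresh KO replicate 1 correlated more closely with the fresh controls, at 0.989 and 0.983.

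The members and all lists were chosen with earlier results of these data known. Named genes were the core subunits, the tissue isoforms and c-ring genes, the 5 genes with the smallest p in each direction and condition, and the 5 with the largest rise or fall in percentile. Any other member, and the examples from the other lists, were named after their values were seen. Scripts were tested on simulated data. Alternatives were other filters, an offset, quantile normalization, centring, array weights, no trend, 1 fit over all arrays, the mean over probe sets, a replicate block and leaving out each array. Promoter windows came from RefSeq (GRCm38.p6), and tables were handled with Python 3.11.15 and pandas 2.3.3.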

Additional observations from a re-analysis of the deposited data

Results flagged for a closer look

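The difference between the KO effect in culture and in fresh cells passed limma's adjusted threshold for the s_at probe set of Cox6a1, with -0.50 on the log2 scale (adjusted p = 0.0489). The KO effect there was -0.16 in culture, where 2 of 3 KO arrays lay below all controls, and 0.34 in fresh cells, where both KO arrays lay above both controls. Processing and condition cannot be told apart in this difference. Of 138 members tested, 1 passed, against 0.879% of all probe sets tested, so the count is no result about the members. The call was kept in 3 of 14 alternatives.

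A further 6 probe sets had every cultured KO array below every cultured control and every fresh KO array above every fresh control, without passing the test of the difference, so that the pattern itself was not shown by a test. The difference of the KO effects was -0.45 for Ndufa5 (limma adjusted p = 0.135), with 3093, 3500 and 3449 in cultured KO against 3678, 3713 and 3626 in cultured control cells and 597 and 643 in fresh KO against 509 and 487 in fresh control cells. It was -0.34 for Ndufb11 (adjusted p = 0.125), with 2715, 2834 and 2609 in cultured KO against 2901, 3027 and 2980 in cultured control cells and 4597 and 4477 in fresh KO against 4099 and 3740 in fresh control cells. It was also -0.34 for Ndufb5 (adjusted p = 0.136), -0.59 for Ndufb7 (0.0891), -0.31 for Uqcrfs1 (0.197) and -0.35 for Atp5a1 (0.125). These are accessory subunits of complex I apart from Uqcrfs1, the Rieske protein, and Atp5a1, the alpha subunit of complex V. Brighter probe sets of Ndufa5, Ndufb5, Ndufb7 and Ndufb11 had overlapping groups in culture. How many of all probe sets share the pattern was not counted.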

How the results depend on the processing

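In fresh cells, between 126 and 131 members were higher in KO cells when 1 array was left out, with medians of 0.18 to 0.23. These fits assume that the lone array of its group varies like the other group. At an unadjusted p under 0.05, each of them had fewer members higher than the main fit, as did the fit without limma's trend (29). The share of all probe sets at that level in these fits is not given here. In culture, leaving out 1 array gave 47 to 90 members higher, medians of -0.04 to 0.03 and 0 called. The difference of the KO effects had medians of -0.24 to -0.16, and the rank comparison 140 to 144 called members and medians of -0.09 to -0.07 (-0.13 with KO arrays alone and -0.0498 with control arrays alone). In fresh cells 2 members were called in 1 fit over 10 arrays (Ndufa4l2, adjusted p = 0.0016, and a dim probe set of Atp5g1, -0.45, adjusted p = 0.015), and 0 to 3 when 1 array was left out: 3 without fresh KO replicate 1 (Ndufa4l2, Atp5mpl and Uqcrq), where 1003 of all probe sets were called, and 0 without each of the others. The difference was called for 2 members in 1 fit over 10 arrays (Ndufa4l2, 1.20, and the same Atp5g1 probe set, 0.46), for 1 without the filter (Ndufa4l2 in place of Cox6a1) and for 0 with the replicate block. Leaving out 1 array gave 0 to 8: 8 without fresh KO replicate 1, 2 without cultured control replicate 1 (Cox6a1 and Cox7c) and 0 without each of the other 8. For Cox6a1 the difference ran between -0.54 and -0.43. The fresh change of Atp5g1 reversed to -0.0522 (adjusted p = 0.858) with the mean over its probe sets, and that of Cox6a2 ran between -0.175 and 0.055 when 1 array was left out. The causes were not tested. The fit over 10 arrays takes 1 variance from all 4 groups, so its calls also rest on the cultured arrays, where Ndufa4l2 is at the floor. For the fits over 10 arrays, without the filter and without cultured control replicate 1, the share of all probe sets called is not given here. Their counts of called members are therefore no result about the members.

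The replicate numbers were not taken as pairs. Same-numbered cultured arrays deviated together with correlations of 0.322, 0.081 and 0.249, against -0.300 to 0.172 for differently numbered ones. Pairs in culture are therefore not excluded. The same-numbered fresh arrays gave -0.055. With the number as a block, 0 members were called in culture, in fresh cells and for the difference. At an unadjusted p under 0.05, 8 members were higher in culture, 63 higher in fresh cells and 55 below 0 for the difference. The share of all probe sets at that level with the block is not given here, so these counts are no result about the members. Dim probe sets are limited by the floor of the cultured arrays, where values under about 10 have no order.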
